A study of Mus musculus with 8 samples.

Results

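The 10 genes described here, Ms4a1, Cr2, Fcer2a, Bank1, Cd37, Cd72, Fcrla, Cd40, Cxcr5 and Ltb, are known from mature B lymphocytes, and they were 10 of 18193 genes measured. They were taken by name: every probe set, the group of short probes that reads 1 transcript, whose platform gene symbol was a member was used, which gave 17 probe sets. Total RNA of sorted Sca1+Lin- bone marrow cells (positive for the stem cell marker Sca1, negative for lineage markers) was read on Affymetrix arrays of 1 colour after amplification. There were 5 samples from Sca1-MALT1 transgenic mice and 3 from wild-type (WT) mice. The name of the transgene joins Sca1 to MALT1, an oncogene of human MALT lymphoma whose protein relays antigen receptor signals to NF-kB. The labels give no age, sex, strain, founder line or lineage antibodies, and do not say whether each sample was 1 animal. The comparison asks how expression in this sorted fraction differs between the genotypes.

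Mature B cells sense antigen through the B cell receptor, and most of these genes tune that signal or connect the cell to T cells and to the lymphoid follicle. Ms4a1 encodes CD20 and Cd37 a tetraspanin, both membrane proteins of B cells. Cr2 encodes the complement receptors CD21 and CD35, Fcer2a the low-affinity IgE receptor CD23, and Cd72 an inhibitory co-receptor. Bank1 is a cytoplasmic scaffold of B cell receptor signalling and Fcrla an Fc receptor-like protein kept inside the cell, so these 2 genes do not encode surface proteins. Cd40 is the receptor for T cell help, Ltb a membrane-anchored lymphotoxin, and Cxcr5 the chemokine receptor that guides B cells to follicles. When B cells become plasma cells they are known to shut off many genes of this kind, Ms4a1, Cr2, Fcer2a and Cxcr5 among them. Several members are also made outside B cells: Cr2 by follicular dendritic cells, Cd40 by dendritic cells and macrophages, Cxcr5 by follicular helper T cells, and Ltb by T cells.

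The promoters are shown because members that share a lineage can be compared by the letters before their start. RefSeq promoters (GRCm38.p6, 250 bases before to 50 after the start) matched 7 of the 10 members, in 9 entries, 3 of them for Fcer2a. The letters GAGGAA, the core of sites of the ETS factors PU.1 and Spi-B, were searched on both strands and stood in 4 of the 9 entries, against 28.3% of all 32851 promoters. Capitals mark this core, written TTCCTC where it lies on the other strand.
Cd72, chr4:43454577-43454876, minus strand: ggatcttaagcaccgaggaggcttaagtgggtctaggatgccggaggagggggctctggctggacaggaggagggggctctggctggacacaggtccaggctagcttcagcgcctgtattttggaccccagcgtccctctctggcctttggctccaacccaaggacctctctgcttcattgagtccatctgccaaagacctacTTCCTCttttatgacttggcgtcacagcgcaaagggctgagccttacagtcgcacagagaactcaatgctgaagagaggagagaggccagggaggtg
Fcrla, chr1:170927534-170927833, minus strand: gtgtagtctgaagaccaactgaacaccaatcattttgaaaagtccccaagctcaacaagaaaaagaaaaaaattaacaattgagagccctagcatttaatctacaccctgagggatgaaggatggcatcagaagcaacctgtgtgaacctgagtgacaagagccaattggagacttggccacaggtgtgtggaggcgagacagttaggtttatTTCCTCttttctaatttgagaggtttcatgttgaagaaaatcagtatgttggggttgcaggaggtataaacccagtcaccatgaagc
Cd37, chr7:45238790-45239089, minus strand: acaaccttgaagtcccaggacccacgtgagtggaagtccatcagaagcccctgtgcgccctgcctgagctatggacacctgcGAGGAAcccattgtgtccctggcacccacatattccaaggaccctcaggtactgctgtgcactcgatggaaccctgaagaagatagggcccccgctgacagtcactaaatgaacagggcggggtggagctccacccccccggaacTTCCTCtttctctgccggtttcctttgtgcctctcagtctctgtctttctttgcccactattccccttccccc
Ltb, chr17:35194257-35194556, plus strand: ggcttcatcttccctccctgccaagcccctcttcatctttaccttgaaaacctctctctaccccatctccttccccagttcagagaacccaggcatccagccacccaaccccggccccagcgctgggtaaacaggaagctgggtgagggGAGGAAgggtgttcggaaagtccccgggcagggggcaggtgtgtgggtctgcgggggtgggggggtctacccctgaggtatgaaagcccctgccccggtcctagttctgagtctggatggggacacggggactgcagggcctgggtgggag

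The core began 47 bases before the start in Cd72, 37 in Fcrla, 23 and 168 in Cd37, and 101 in Ltb. The E-box CAGGTG, a letter pattern of E proteins, stood on either strand in 6 of the 9 entries, against 20.2% of all promoters. The EBF pattern CCCNNGGG, the same on both strands, stood in 1 of 9 (that of Bank1), against 13.7%. No match of one pattern overlapped a match of another, and a match describes the letters and nothing about binding.

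None of the 10 members passed the test, and 8 of them had a lower mean in Sca1-MALT1. limma's moderated test over all 18193 genes, with Benjamini-Hochberg adjustment and a threshold of 0.05, called 16 genes, or 0.0879% of those tested, so few genes of any kind passed. At an unadjusted p under 0.05 there were 2 members, Cd72 and Cd40, both lower, where 4.49% of all genes were lower and 10.2% differed in either direction at that level. Over the members the median log2 difference, Sca1-MALT1 minus WT, was -0.96, against 0.0040 over all genes, of which 49.3% were lower. Only Cd72 had groups that did not overlap (all Sca1-MALT1 arrays below all WT arrays), 1 of 10 members, where 2.87% of all genes were separated in that direction and 7.13% in either. The median depended on WT replicate 3: without it the median was -0.37. Fewer cells of a type and less RNA per cell cannot be told apart in these bulk samples.

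**Figure D1:**
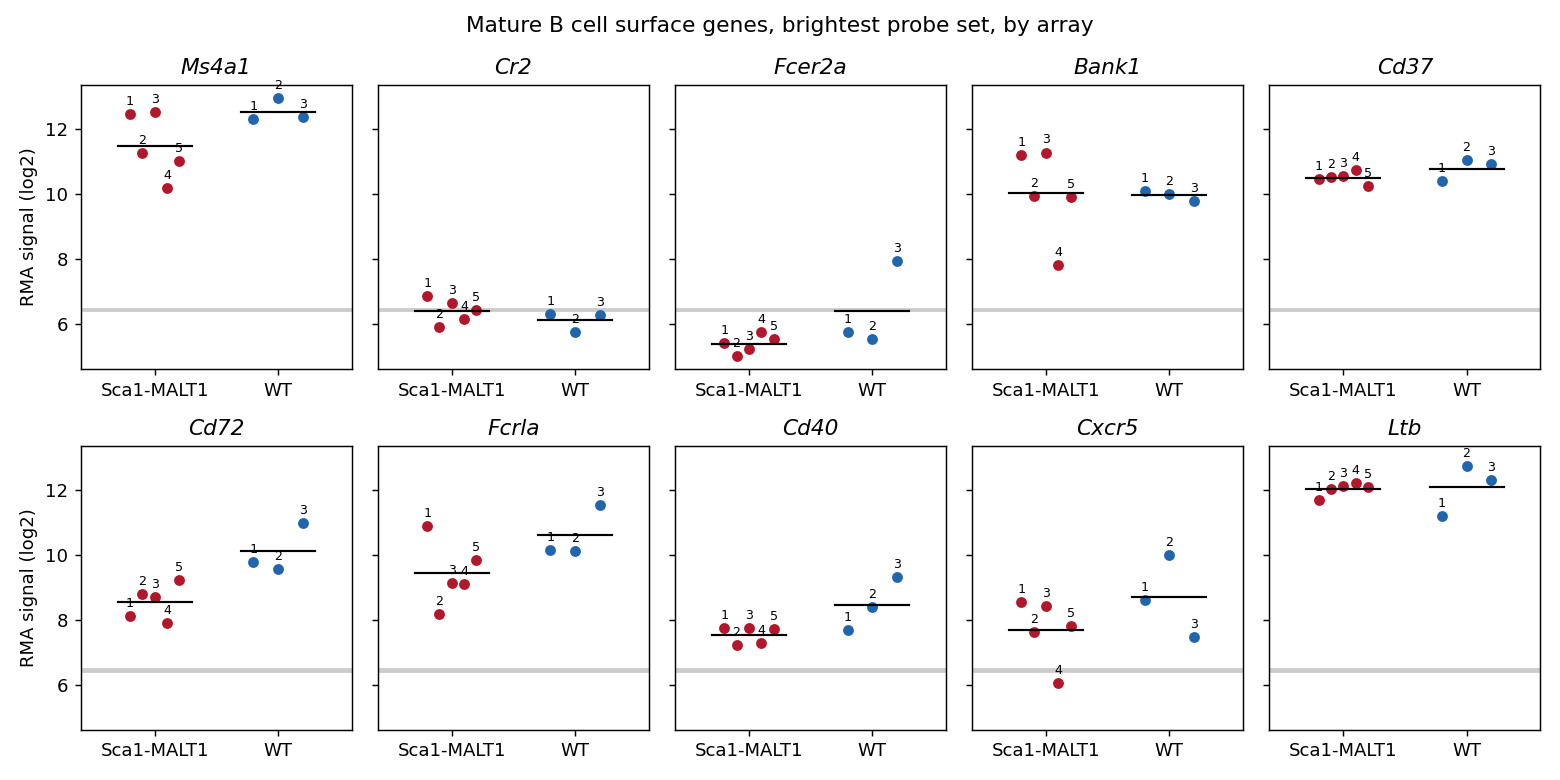
RMA signal (log2) of the brightest probe set of each of the 10 genes; points are arrays with their replicate numbers, bars are group means, and the grey band spans the array medians of 6.40 to 6.48. Cd72 is the 1 gene whose Sca1-MALT1 arrays (7.92 to 9.24) all lie below the WT arrays (9.57 to 10.99).

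Cd72, the inhibitory co-receptor that recruits a phosphatase against the B cell receptor signal, had the largest difference of the members. Its log2 signal was 8.14, 8.80, 8.71, 7.92 and 9.24 in Sca1-MALT1 replicates 1 to 5, against 9.77, 9.57 and 10.99 in WT replicates 1 to 3. The highest Sca1-MALT1 array lay below the lowest WT array, and WT replicate 3 stood above the other two. The means were 8.56 ± 0.53 (SD, n = 5) in Sca1-MALT1 and 10.11 ± 0.77 (SD, n = 3) in WT, a log2 difference of -1.55 (SE 0.39, 95% confidence interval -2.45 to -0.65), or 2.93-fold lower. This did not pass over all genes (limma adjusted p = 0.271, 259th of 18193 by unadjusted p). An exact two-sided permutation test of this 1 value over all 56 splits of the arrays gave p = 0.0179, the smallest it can give, unadjusted and for a member chosen with earlier results known. With each array left out in turn the difference lay between -1.82 and -1.11, with limma adjusted p-values of 0.232 to 0.478. Groups that are already apart stay apart when an array is dropped, so their separation was not put to a test this way.

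Bank1, the scaffold that links Src family kinases to calcium release in B cells, had close means and a wide spread in Sca1-MALT1. Sca1-MALT1 arrays read 11.22, 9.95, 11.29, 7.82 and 9.93 in replicate order, against 10.10, 10.02 and 9.78 in WT. Replicates 1 and 3 lay above all WT arrays and replicate 4 below all of them, so the Sca1-MALT1 arrays spanned 3.47 log2 units and the WT arrays 0.31. Means were 10.04 ± 1.40 (SD, n = 5) in Sca1-MALT1 and 9.96 ± 0.16 (SD, n = 3) in WT (difference 0.075, SE 0.72, limma adjusted p = 0.986). The interval of this difference ran from -1.56 to 1.71, so it covers changes of either sign. Without Sca1-MALT1 replicate 4 the difference was 0.63, and without replicate 3 it was -0.24.

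Fcrla, known from germinal centre and other mature B cells, was read by 3 probe sets that ranked the Sca1-MALT1 arrays much alike. On the brightest, Sca1-MALT1 arrays read 10.90, 8.19, 9.15, 9.10 and 9.85, against 10.15, 10.13 and 11.54 in WT. Sca1-MALT1 replicate 1 lay inside the WT range and the other 4 arrays below it. The difference was -1.17 (SE 0.59, limma adjusted p = 0.547), with means of 9.44 ± 1.01 (SD, n = 5) in Sca1-MALT1 and 10.61 ± 0.81 (SD, n = 3) in WT. The other probe sets differed by -0.35 and -0.72 (exact permutation p = 0.607 and 0.232). Replicate 1 was the highest Sca1-MALT1 array and replicate 2 the lowest on all of them. The brightest probe set and the one at -0.72 are annotated to the same source sequence, so they are not independent readings. The one at -0.72 read 5.83, 6.23 and 6.35 in Sca1-MALT1 replicates 2, 3 and 4, below the array medians, so signal over background could not be judged there. Without WT replicate 3 the difference of the brightest was -0.70.

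Cr2, whose product binds complement-coated antigen, lay near the array medians in every sample. Its 1 probe set read 6.87, 5.92, 6.66, 6.17 and 6.44 in Sca1-MALT1, against 6.33, 5.77 and 6.30 in WT. The groups overlapped, with means of 6.41 ± 0.38 (SD, n = 5) in Sca1-MALT1 and 6.13 ± 0.31 (SD, n = 3) in WT and a difference of 0.28 (SE 0.24, limma adjusted p = 0.751). Without WT replicate 2 the difference was 0.096. RMA values carry no detection call, so signal over background could not be judged for Cr2. That limit holds for Fcer2a too.

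Fcer2a, the CD23 gene by which follicular B cells of the mouse are recognised, read high on 1 array. Sca1-MALT1 arrays gave 5.44, 5.03, 5.24, 5.76 and 5.55, and WT arrays gave 5.76, 5.55 and 7.94. WT replicate 3 alone stood above the array medians, and the other 7 arrays lay within 5.03 to 5.76. The difference of -1.02 (SE 0.50, limma adjusted p = 0.536) was -0.25 without that array, and no fold is given. The exact permutation p of this brighter probe set, unadjusted, was 0.0357. The dimmer probe set differed by -0.23 (exact permutation p = 0.125).

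Ms4a1, the CD20 gene, was lower in 3 of the 5 Sca1-MALT1 arrays than in any WT array. Its signal was 12.48, 11.26, 12.54, 10.20 and 11.02 in Sca1-MALT1, against 12.31, 12.97 and 12.36 in WT. Replicates 1 and 3 lay inside the WT range, and replicates 2, 5 and 4 lay below it in that order. Means were 11.50 ± 0.999 (SD, n = 5) in Sca1-MALT1 and 12.55 ± 0.37 (SD, n = 3) in WT, a difference of -1.05 (SE 0.53, interval -2.25 to 0.16, limma adjusted p = 0.545). The second probe set gave 11.17, 9.74, 10.83, 8.81 and 9.96 in Sca1-MALT1 against 11.09, 11.58 and 11.38 in WT. That was a difference of -1.25 (SE 0.49, limma adjusted p over all probe sets = 0.488, unadjusted exact permutation p = 0.0536). Both probe sets had replicates 1 and 3 highest and replicate 4 lowest among the Sca1-MALT1 arrays, as Bank1 had. The 2 probe sets of Ms4a1 are annotated to the same source sequence, so they are not independent readings.

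Cd37, a tetraspanin found on B cells and at lower levels on other leukocytes, gave different values on its 2 probe sets. The brightest read 10.46, 10.54, 10.56, 10.76 and 10.25 in Sca1-MALT1, against 10.40, 11.05 and 10.93 in WT. These groups overlapped and differed by -0.28 (SE 0.18, interval -0.68 to 0.12, limma adjusted p = 0.644), or by -0.15 without WT replicate 2 and -0.47 without WT replicate 1. The other probe set read 9.15, 10.42, 10.50, 10.25 and 8.12 in Sca1-MALT1, against 10.55, 10.80 and 11.35 in WT. All of its Sca1-MALT1 arrays lay below all WT arrays, with replicates 5 and 1 far below the rest, and its difference was -1.22 (SE 0.55, limma adjusted p over all probe sets = 0.543, exact permutation p = 0.107). Over all 45037 probe sets 6.83% had groups that did not overlap, and 2 of the 17 probe sets of the members did.

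**Figure D2:**
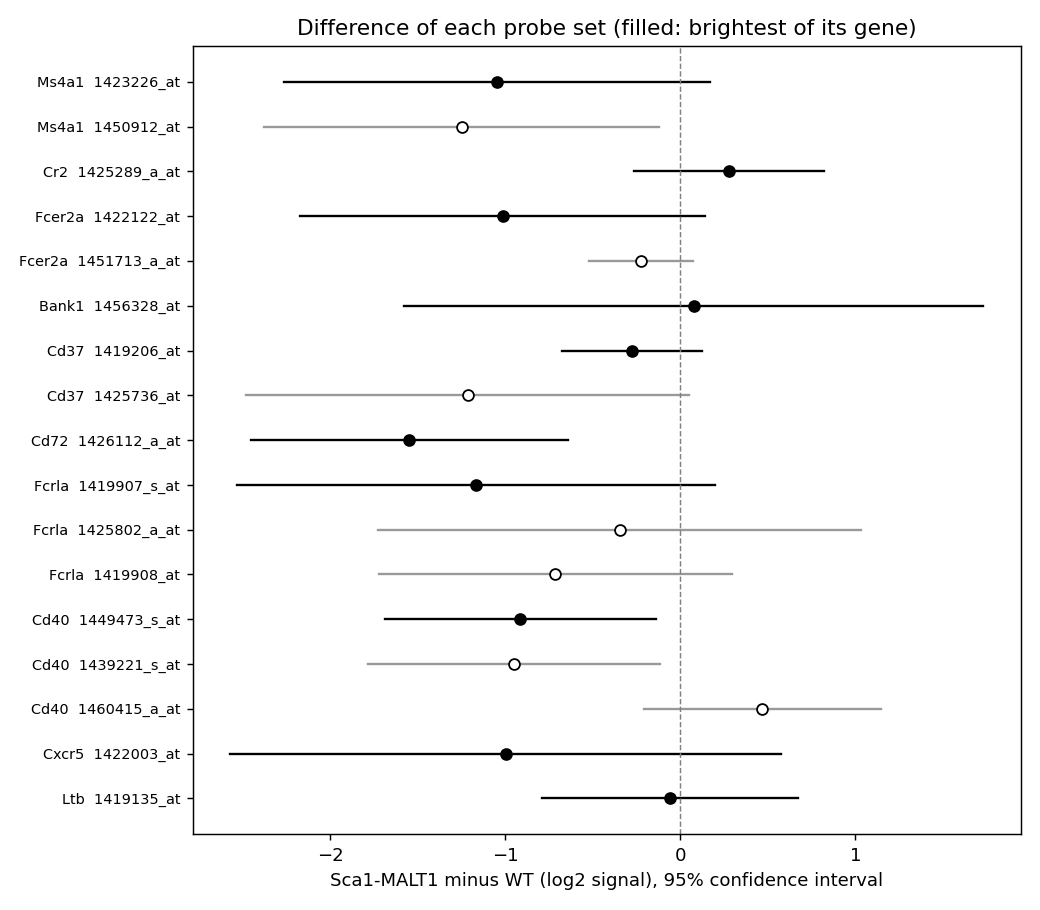
Log2 difference, Sca1-MALT1 minus WT, of each of the 17 probe sets with its 95% confidence interval from the fit on all probe sets; filled points are the brightest probe set of a gene, open points the others. Differences run from -1.55 (Cd72) to 0.47 (the dimmest of the Cd40 probe sets), and 14 of the 17 are below 0.

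Cd40, through which T cells license B cells for the germinal centre, was read by 3 probe sets that disagreed in sign. The brightest read 7.76, 7.23, 7.77, 7.30 and 7.72 in Sca1-MALT1, against 7.68, 8.39 and 9.34 in WT. The Sca1-MALT1 arrays lay close together and WT replicate 1 fell among them. The difference was -0.91 (SE 0.34, interval -1.68 to -0.14, limma adjusted p = 0.409), with means of 7.56 ± 0.27 (SD, n = 5) in Sca1-MALT1 and 8.47 ± 0.83 (SD, n = 3) in WT. Without WT replicate 3 it was -0.48, and without WT replicate 1 it was -1.31. The second probe set differed by -0.95 (exact permutation p = 0.0714) and the dimmest by 0.47 (exact permutation p = 0.286). The interval of the dimmest, -0.21 to 1.15 in the fit on all probe sets, covers 0, and its WT replicate 1 (6.16) lay below the array medians. The sign of the estimate for Cd40 thus depends on the probe set, and that of the dimmest is not settled.

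Ltb, which with lymphotoxin alpha forms the ligand that builds and maintains follicles, had nearly equal means. Sca1-MALT1 arrays read 11.69, 12.04, 12.12, 12.21 and 12.09, all inside the WT values of 11.19, 12.75 and 12.32. The difference was -0.060 (SE 0.32, interval -0.79 to 0.67, limma adjusted p = 0.972). Its sign turned when single arrays were left out, with a range of -0.51 to 0.27. Cxcr5, the receptor for the follicle chemokine Cxcl13, varied widely in both groups. It read 8.55, 7.63, 8.44, 6.07 and 7.82 in Sca1-MALT1, against 8.61, 10.01 and 7.47 in WT. Sca1-MALT1 replicate 4 was the lowest array and WT replicate 2 the highest. The difference of -0.997 (SE 0.68, limma adjusted p = 0.675) was -0.34 without WT replicate 2 and -1.61 without WT replicate 3. Without Sca1-MALT1 replicate 4 it was -0.59. That array lay below the array medians, so signal over background could not be judged there.

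Arrays of 1 genotype did not rank alike across the members. WT replicate 3 was the highest WT array in 4 members (Fcer2a, Cd72, Fcrla and Cd40), and WT replicate 2 in another 4 (Ms4a1, Cd37, Cxcr5 and Ltb). Among the Sca1-MALT1 arrays replicate 4 was the lowest in Ms4a1, Bank1, Cd72 and Cxcr5 and the highest in Fcer2a, Cd37 and Ltb. Replicate 2 was the lowest in Cr2, Fcer2a, Fcrla and Cd40. Sca1-MALT1 replicate 4 also had the highest mean of the 8 measured neutrophil markers, 14.00, against 10.54 to 12.52 in the other Sca1-MALT1 arrays and 12.26 to 12.81 in WT, and the highest Ms4a6d, a myeloid relative of Ms4a1. WT replicate 3 had the lowest mean of the 9 stem and progenitor markers among the WT arrays, 9.60, and the highest of the 7 early B cell markers, 11.23. Xist, the RNA of the silenced X chromosome in female mice, read high in Sca1-MALT1 replicates 2 and 4 (13.09 and 12.46) and 6.20 to 6.58 in the other 6 arrays. On those 6 arrays alone the median over the members was -0.48, Cd72 differed by -1.42 (limma adjusted p = 0.248), Ms4a1 by -0.53 and Bank1 by 0.85, and none of the 10 passed. The actin control probe sets gave a log2 signal at the 3' end minus the 5' end, a rough guide to RNA quality. It was 2.49 in Sca1-MALT1 replicate 5 and 2.14 in WT replicate 1, against 1.25 to 1.64 in the other arrays. For Gapdh it was 3.20 in Sca1-MALT1 replicate 5 and 2.25 to 2.92 in the others. WT replicate 1 was the lowest WT array in Ms4a1, Cd37, Cd40 and Ltb, and Sca1-MALT1 replicate 5 the lowest array on both Cd37 probe sets. The part of these markers and of RNA quality in the differences was not tested.

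**Figure D3:**
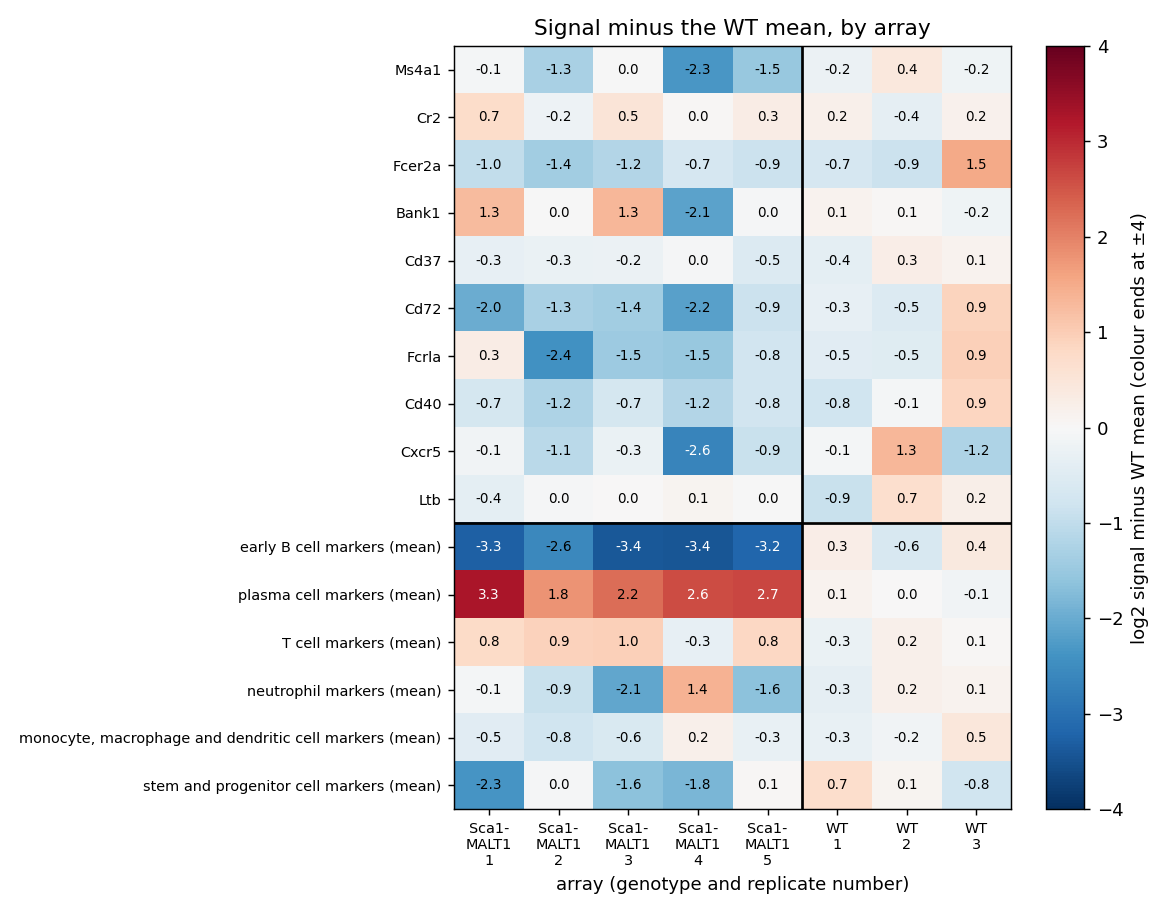
Log2 signal minus the WT mean for the 10 genes (above the line) and for the mean of 6 marker lists (below it), with the Sca1-MALT1 arrays on the left and the WT arrays on the right. The mean of the early B cell markers was lower and that of the plasma cell markers higher in each Sca1-MALT1 array than in any WT array. Of the 10 genes only Cd72 was lower in each Sca1-MALT1 array than in any WT array. A list mean varies less than a single gene, so the rows above and below the line are unlike measures.

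The mean levels of early B cell markers and of plasma cell markers did not overlap between the genotypes, though single genes of each list overlapped. Of the 7 early B cell markers, 6 had lower means and 4 of these passed the threshold, where 0.0879% of all genes passed in either direction. The 4 were Igll1, Vpreb1, Rag1 and Rag2 (differences of -3.92, -5.55, -5.88 and -2.46, limma adjusted p = 0.00228, 0.00596, 0.00596 and 0.0374). The Sca1-MALT1 means of Vpreb1, Rag1 and Rag2 were 5.78, 5.05 and 5.31, below the array medians, so signal over background could not be judged there and the sizes of these differences are uncertain. Vpreb3, at -1.20 (limma adjusted p = 0.594), and the interleukin 7 receptor gene Il7r, the 1 marker that was higher, at 0.50 (limma adjusted p = 0.648), had overlapping groups. The list had a median of -3.71, and its array means were 7.42 to 8.25 in Sca1-MALT1, against 10.20 to 11.23 in WT. All 10 plasma cell markers had higher means in Sca1-MALT1, 1 of them passed and 2 (Mzb1 and Fkbp11) had overlapping groups, with a median of 2.36 and array means of 10.65 to 12.14 in Sca1-MALT1, against 8.71 to 8.995 in WT. Jchain, the joining chain of secreted antibody, rose by 2.58 (SE 0.27, limma adjusted p = 0.0163), while Xbp1 stood at 1.32, Igha at 5.93 and Derl3 at 2.88, none of which passed. Igha read 15.10 to 15.38 in Sca1-MALT1, near the highest value deposited (15.41), against 12.45, 7.17 and 8.42 in WT, so the size of its difference is uncertain. Whether the members differ from these lists was not tested.

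Partners of the members at the B cell receptor gave values in both directions. Of 14 measured genes 8 were lower and 6 higher, the median was -0.26, and none passed. Groups did not overlap in 3 (2 lower and 1 higher), where 7.13% of all genes were separated in either direction. Siglecg, an inhibitory lectin of B cells, read 8.19, 7.92, 8.45, 7.43 and 7.46 in Sca1-MALT1, against 9.16, 9.10 and 10.13 in WT, a difference of -1.57 (SE 0.32, limma adjusted p = 0.194). Ly86, which pairs with the Toll-like protein CD180, stood at -1.13 and the receptor chain gene Cd79b at -1.04 (limma adjusted p = 0.320 and 0.434). Ighm stood at 0.76 (limma adjusted p = 0.219), with a mean of 15.34 in Sca1-MALT1 near the top of the scale, where the highest value deposited was 15.41.

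The CD40, lymphotoxin and BAFF receptor pathway had a median of 0.10 over 20 measured genes, 7 lower and 13 higher, with none past the threshold and no groups apart. Relb, the transcription factor downstream of CD40 and the lymphotoxin receptor, stood at 0.49 (SE 0.18, limma adjusted p = 0.404), and Birc2, a ubiquitin ligase of the same route, at 0.43. Tnfsf13b, the survival factor BAFF, stood at -1.18 and its receptor gene Tnfrsf13c at -0.61 (limma adjusted p = 0.493 and 0.629). Tnfsf13b was at -0.42 without WT replicate 3, Tnfrsf13c at -0.38 without Sca1-MALT1 replicate 2 and Birc2 at 0.17 without WT replicate 1.

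Transcription regulators of B cells had a median of -0.32 over 17 genes, 9 lower and 8 higher, and none passed. Groups did not overlap in 4, all lower in Sca1-MALT1, where 2.87% of all genes were separated in that direction. Spib, whose product Spi-B recognises the core marked in the promoters above, read 9.39, 8.13, 9.32, 7.72 and 8.77 in Sca1-MALT1, against 10.29, 10.89 and 11.47 in WT. That was a difference of -2.21 (SE 0.43, limma adjusted p = 0.180), with each Sca1-MALT1 array below each WT array. Pax5 stood at -1.16, Tcf3 at -0.78 and Ebf1 at -2.28 (limma adjusted p = 0.204, 0.224 and 0.339). The Sca1-MALT1 mean of Pax5, 5.77, lay below the array medians, so signal over background could not be judged there. The 21 measured genes of the other B cell surface list had a median of 0.18, 9 lower and 12 higher, none past the threshold. Among them were Cd93, a receptor of immature B cells and progenitors, at -1.18, H2-Ob at -1.24, Cd74, the invariant chain of MHC class II, at 0.82 and Il4ra at 0.42.

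Other cell types that share members were checked through their markers. T cell markers had a median of 0.59 over 9 genes, 7 higher and 2 lower, with array means of 8.86 to 10.15 in Sca1-MALT1 and 8.94 to 9.38 in WT. Cd28 stood at 1.69, Thy1 at 1.43, Cd6 at 0.93 and Cd3e at 0.77. Follicular dendritic cell markers had a median of 0.13 over 6 genes, with Mfge8 at -0.59, Clu at 0.95, Coch at 0.20 and Sox9 at 0.19. The means of Coch and Sox9 lay below the array medians in both genotypes, so signal over background could not be judged for them. Among markers of monocytes, macrophages and dendritic cells the median was -0.23 over 8 genes with array means of 8.02 to 9.02 in Sca1-MALT1, against 8.51 to 9.27 in WT. This list held Csf1r at -1.69, Lyz2 at -1.33, Ctss at 0.52 and Itgax at -0.62. Neutrophil markers had a median of -0.88 over 8 genes (Ltf at -1.19, Csf3r at -1.27, S100a8 at -0.81 and S100a9 at -1.30). Stem and progenitor markers had a median of -1.24 over 9 genes and array means of 8.06 to 10.46 in Sca1-MALT1, against 9.60 to 11.11 in WT (Flt3 at -1.59, Hlf at -1.33, Cd34 at -2.15 and Hoxa9 at -1.82). Without WT replicate 1, Flt3 was at -0.95, Itgax at -0.36 and Ctss at 0.29. Without WT replicate 2, Itgax was at -0.93 and Coch at 0.13, and without WT replicate 3, Ltf was at -0.67, Csf3r at -0.81 and Sox9 at 0.12. No gene of these 5 lists passed, and their part in the values of the members was not tested. The sort marker Sca1 is the product of Ly6a, a gene not analysed here.

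For each member that spanned at least 1 log2 unit over the arrays, the non-member with the most similar profile was taken by the root mean square difference of mean-centred log2 values over the 8 arrays. For Ms4a1 it was Blk, a Src family kinase of B cells (0.33 log2 units). For Cd72 it was Bach2, a repressor of the plasma cell programme (0.26), and for Fcrla it was Vpreb3, a B cell chaperone (0.34). The others were Lig4 for Cd40 (0.26), Egfl6 for Fcer2a (0.21), Zfp945 for Bank1 (0.40), Nid1 for Cxcr5 (0.30), Ppip5k1 for Ltb (0.14) and Zfyve28 for Cr2 (0.13). Cd37 spanned 0.80 and was left out. A nearest gene is found for any profile, and whether these matches are closer than chance gives was not tested. The means of Egfl6, 3.50 in Sca1-MALT1 and 4.57 in WT, lay below the array medians, so signal over background could not be judged there. Small distances also go with small spans, which were 1.09 for Cr2 and 1.57 for Ltb. Among the members themselves, the nearest to Ms4a1 was Cxcr5 (0.56), the nearest to Cd72 was Cd40 (0.54) and the nearest to Ltb was Cd37 (0.30).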

How the data were processed

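The authors' deposited values are on the log2 scale and come from RMA, per the submitters' processing notes, which name no version; RMA as a method corrects background, normalizes arrays to 1 distribution and summarises each probe set. Of 45101 probe sets, 64 controls were left out. The values were used as deposited, with no filter on dim probe sets, and ran from 2.73 to 15.41. The platform annotation gave 34945 probe sets a single gene symbol and 932 several, and did not list 9160. Symbols were updated through RefSeq identifiers. Each gene was read from its probe set with the highest mean over the 8 arrays, which gave 18193 genes. Other probe sets of the members took their SE and adjusted p from a fit on all 45037 probe sets.

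The genotypes were compared with limma 3.58.1 (lmFit and eBayes) in R 4.3.3 over all 8 arrays, fitting genotype alone. Adjusted p-values are two-sided Benjamini-Hochberg values over all genes, called under 0.05. Differences are Sca1-MALT1 minus WT. For single values a two-sided exact permutation test ran over the 56 splits. The fit was tested on simulated data in which 200 of the 18193 genes were changed. It found 63.9% of changes of 1 log2 unit and 94.0% of changes of 2, and 5.87% of its calls were false. The simulated noise was independent between genes, so shifts shared by many genes of an array were not covered. Since no label ties a sample to its own animal, the spread behind the p-values may be technical, and the number of arrays limits the precision.

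The members, lists and alternatives were chosen with earlier results of these data known, so no list was tested. Of each of the 13 gene lists, up to 4 genes with the lowest unadjusted p are named; other genes are named where a sentence turns on them. Alternatives were quantile normalization, median centring, 2 filters on dim genes (above the array median on 3 arrays, or a mean above 6), a fit on all probe sets, averaged probe sets, trend and robust variance, array quality weights, the replicate number as a block, a term for Xist signal above 9, other thresholds and leaving out each array; the Xist-low arrays alone were added after seeing the data. Same-numbered arrays of the 2 genotypes deviated from their group means with r of -0.22, -0.038 and 0.0064 over genes, so the numbers were not taken as pairs.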

Additional observations from a re-analysis of the deposited data

Results flagged for a closer look

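In the 5 Sca1-MALT1 arrays, 82 values (17 probe sets of the members, the named list genes and the list means) were searched for 1 array far from the rest, meaning a gap to its neighbour above 0.71 of the whole range. Chance flags about 1 in 20 of independent values, and 10 were found. These values are not independent: list means stand beside their own genes, and all come from the same 5 arrays. The 10 therefore cannot be set against that rate. One was a member: the dimmest Cd40 probe set read 6.60 in replicate 2, against 7.20 to 7.42 in the other 4 arrays.

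Replicate 4 stood apart in 7 values. It was low in the T cell marker mean (8.86, against 9.94 to 10.15 in the other 4), in Cd28 (8.61), in Thy1 (10.99) and in Cd6 (7.15). It was high in Il4ra (9.57), in Ms4a6d (10.54) and in the mean of the tetraspanin and MS4A relatives (10.79, against 9.86 to 10.06 in the other 4). Replicate 2 had the highest early B cell marker mean of the 5 arrays, 8.25, and replicate 5 the highest Clu, 10.23.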

How the results depend on the processing

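None of the 10 members passed under any alternative run, and the lowest adjusted p was 0.184, for Cd72 with array quality weights. Cd72 was lower in all 19 alternatives, between -1.82 and -1.11, but not all of them could change its difference. The filters on dim genes, the fit on all probe sets and the trend and robust variance leave it as it was. So does averaging probe sets, since Cd72 has 1. Fcer2a could not be fitted under either filter on dim genes, which removed it. With single arrays left out, Bank1 ranged from -0.24 to 0.63 and Ltb from -0.51 to 0.27, both across 0. The dimmest Cd40 probe set, at 0.47, had the opposite sign to the brightest. The median over the members was -0.48 with the Xist term and also on the Xist-low arrays alone. These 2 settings give the same differences, since the Xist-high arrays were all Sca1-MALT1, so they count as 1 estimate. The median was -1.10 to -0.37 with arrays left out (-0.37 without WT replicate 3). With arrays left out, 1 to 4 members had groups that did not overlap (4 without WT replicate 1: Cd37, Cd72, Cd40 and Ltb, where 13.2% of all genes did), and on the Xist-low arrays alone 3 did, where 20.1% of all genes did. Genes past the threshold numbered 27 with the filter on the array median, 27 on all probe sets, 28 with array weights, 29 with the Xist term, 59 on the Xist-low arrays alone, 8 and 38 at thresholds of 0.01 and 0.1, and 8 to 38 with arrays left out (among Sca1-MALT1 arrays, 8 with replicate 3 dropped, 9 with replicate 5, 10 with replicate 1 and 38 with replicate 2 dropped). With the replicate number as a block, limma called 0 genes, with 2034 at an unadjusted p under 0.05, and the median over the members was -0.47. WT has no replicate 4 or 5, so Sca1-MALT1 replicates 4 and 5 did not enter the differences of that fit. Of the 52 genes named from the lists, 16 moved by over 1.5 times when some array was left out, and none of the 52 turned sign. They were picked for the lowest unadjusted p in the same data, and that choice favours a stable sign. Beyond these limits of design, the cause of the shifts was not tested.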

Other observations

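Relatives of Ms4a1 and Cd37 and genes of lymphoid homing were also measured. The 14 tetraspanin and MS4A relatives had a median log2 difference of 0.25, 5 lower and 9 higher, and none passed. Ms4a6d stood at 1.43, Ms4a6b, which is known from T cells and myeloid cells, at 0.72, Cd9 at -0.69 and Tspan32 at -0.24, with limma adjusted p-values of 0.534 to 0.701. Ms4a6d was at 0.88 without Sca1-MALT1 replicate 4. Cd9 was at -1.08 without WT replicate 1 and -0.39 without WT replicate 3, and Tspan32 at -0.41 without WT replicate 1 and -0.067 without WT replicate 2. The 11 lymphoid homing genes had a median of 0.22, 4 lower and 7 higher, with none past the threshold and no groups apart. Cxcr3, a chemokine receptor of activated T cells and plasma cells, stood at 1.58 (SE 0.40, limma adjusted p = 0.271), and Cxcl12, the chemokine that retains B cell precursors and plasma cells in bone marrow, at 2.35 (SE 0.76, limma adjusted p = 0.370). Itgal stood at 0.46 and Gpr183, an oxysterol receptor that positions B cells in lymphoid tissue, at 0.88. Without WT replicate 1, Itgal was at 0.13 and Gpr183 at 0.17, and without WT replicate 2 Cxcl12 was at 1.36.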
